A study of Mus musculus with 32 samples.

Results

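The genes described here code for the nuclear-encoded parts of mitochondrial complex I and for proteins that build it. They were taken as every gene of the combined 3′UTR count table whose symbol starts with Nduf, which gave 45 of the 44081 genes in the table. Of these, 38 are named as subunits and 7, Ndufaf1 to Ndufaf7, as assembly factors. A gene entered the comparison of compartments with at least 1 read in at least 16 libraries, which 10880 genes met, among them 37 subunits and all 7 assembly factors. Ndufa4l2, a paralog of Ndufa4, had 0 reads in all 32 libraries and was left out.

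The soma and the dendrites of 16 single hippocampal neurons were collected separately, so the libraries form 16 pairs. The neurons came from C57BL/6 mouse embryos at day 18, carried no genetic change or treatment, and had been in culture for 15 days. RNA was amplified with the aRNA method, in which RNA is copied by in vitro transcription, in 3 rounds for neurons 1 to 4 and in 2 rounds for neurons 5 to 16. The soma of the same cell is the control for its dendrites throughout.

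Complex I takes electrons from NADH, passes them to ubiquinone and pumps protons across the inner mitochondrial membrane. It is built like an L: the matrix arm holds the N module, which oxidizes NADH, and the Q module, which reduces ubiquinone, and the membrane arm carries the proton pumps. The core subunits of the matrix arm do the electron transfer and are coded in the nucleus, the core subunits of the membrane arm are coded in the mitochondrial genome, and the many small accessory subunits surround both arms. Assembly factors act while the complex is built and are not part of the finished enzyme. Neurons have mitochondria in the soma and in dendrites.

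Promoters of these genes are shown because NRF1, a transcription factor known for its sites at respiratory chain genes, is among the shared regulators of this family. A form of its site, given by the capitals below with any base allowed at the sixth place, was searched on both strands of the RefSeq promoters (GRCm38.p6, 250 bases before to 50 bases after each start), of which 39 of the 45 genes had one. It was found for 9 of the 39, namely 7 subunits and 2 assembly factors, and for 5.19% of all 27025 genes with a promoter. A form of the YY1 site, searched the same way, was found for 4 of the 39 (Ndufa9, Ndufs4, Ndufs6 and Ndufs7) and for 0.755% of all genes. The stretches of 3 accessory subunits of the membrane arm and 1 assembly factor follow on the strand of each gene, with the match in capitals.
Ndufa8, chr2:36049349-36049378, minus strand: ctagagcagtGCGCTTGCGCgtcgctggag
Ndufa11, chr17:56717692-56717721, plus strand: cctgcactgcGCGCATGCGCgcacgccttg
Ndufb4, chr16:37654540-37654569, minus strand: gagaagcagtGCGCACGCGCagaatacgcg
Ndufaf4, chr4:24897960-24897989, plus strand: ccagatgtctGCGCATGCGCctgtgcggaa
In Ndufa8 the match reads in the reverse direction. The log2 fold changes of these genes, dendrites over soma, were 0.15 for Ndufa8, 0.20 for Ndufa11, 0.95 for Ndufb4 and -2.95 for Ndufaf4, and none of the 4 genes passed the edgeR test. With spike-in scaling they were -2.56, -2.27, -1.63 and -5.28, all below 0. At that scaling Ndufa8 (adjusted p = 0.0252) and Ndufaf4 (adjusted p = 0.00181) were called lower in dendrites. Of the 3 subunits that passed the test of compartments as higher in dendrites, the promoters of Ndufa1 and Ndufa4 held neither motif in this window, and Ndufb9 was among the genes without a promoter in the set.

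Dendrites had between 646521 and 6954420 reads on 3′UTRs and somas between 925525 and 21169974. The dendrites of neurons 15 and 16 held the fewest genes with at least 10 reads, 1570 and 2485, against a median of 6052.5 over all dendrites. Reads of mitochondrially encoded RNA made up 2.39% to 35.8% of a dendrite library and 0.277% to 8.12% of a soma library. The summed level of 5 interneuron markers (Gad1, Gad2, Slc32a1, Sst and Pvalb) ran from 1183 to 19880 CPM in somas, and that of 6 pyramidal neuron markers from 101.5 to 2674. CPM here are TMM-scaled and taken over the genes that were compared. Pyramidal markers were higher in the dendrites of 14 neurons and interneuron markers in those of 1. The 6 astrocyte markers summed to a median of 159 CPM in dendrites (range 0 to 846) and 57.5 CPM in somas (0 to 538) and were higher in the dendrites of 12 neurons. Oligodendrocyte, microglia and endothelial markers had medians of 31.7, 12.0 and 2.48 CPM in dendrites and 23.1, 0.420 and 1.10 CPM in somas, and Cldn5 was at 0 in all libraries. Their part in the values below was not tested.

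Nearly all subunits were read in nearly all dendrites, while the share of assembly factors read so widely was near that of all genes. At least 1 read was found in all 16 dendrites for 34 of the 38 subunits and in at least 15 dendrites for 35, or 92.1%. Among the assembly factors only Ndufaf7 reached 15 dendrites, 1 of 7 or 14.3%, and among all 10880 genes 1863 did, or 17.1%. The median number of dendrites with a read was 13 for the assembly factors and 11 for all these genes. The other subunits were Ndufa9 in 14 dendrites, Ndufs3 in 13 and Ndufa4l2 in 0. With a minimum of 10 reads in place of 1, 32 subunits, 0 assembly factors and 761 genes of the 10880 were found in at least 15 dendrites. With all dendrites thinned to the smallest total, 646521 reads, the numbers were 35, 0 and 1311. Somas had reads for all 37 subunits in each of the 16 libraries, while the dendrites of neuron 16, the poorest in subunits, had reads for 34.

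The subunits took a larger share of the reads in dendrites than in the soma. The share ran from 0.981% to 3.13% in dendrites with a median of 1.61%, and from 0.803% to 1.47% in somas with a median of 1.13%. It was higher in the dendrites of 15 of the 16 neurons, and neuron 14, with 1.05% in its dendrites and 1.36% in its soma, was the exception. The ranges of the compartments overlapped. The assembly factors took 0.000554% to 0.143% of dendrite reads, median 0.0262%, and 0.0254% to 0.118% of soma reads, median 0.0392%. Their share was higher in the soma of 11 neurons and in the dendrites of 5.

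**Figure D1:**
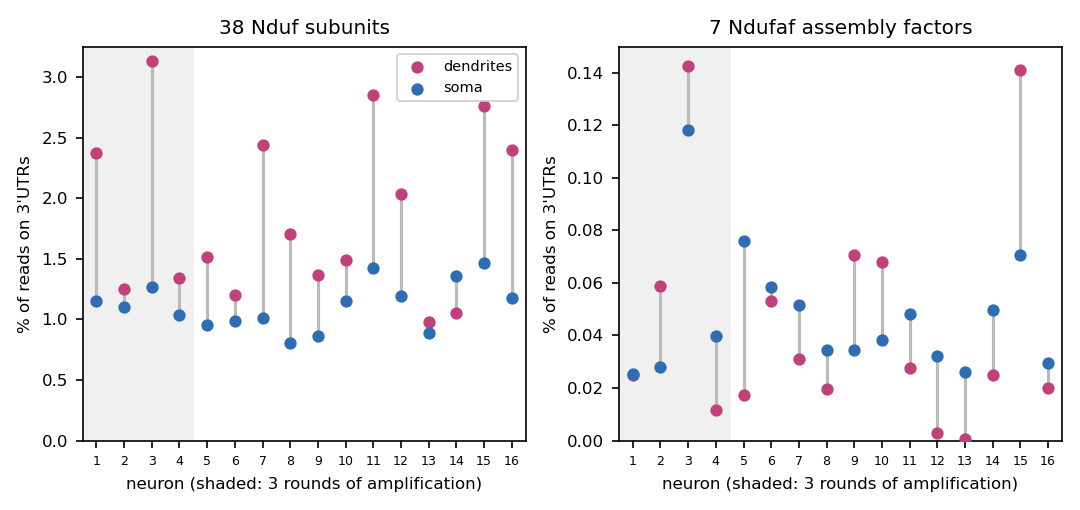
Share of the reads on 3′UTRs, in percent, that fell on the 38 subunits (left) and on the 7 assembly factors (right) in the dendrites and the soma of each of the 16 neurons, with 1 point per library and a line joining the libraries of a neuron. The subunit share was higher in dendrites in every neuron but neuron 14, and the assembly factor share was higher in the soma in 11 neurons.

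Shares were also taken over nuclear-encoded reads alone, since mitochondrially encoded RNA filled more of the dendrite libraries. The subunits then took 1.10% to 4.30% in dendrites, median 1.90%, and 0.810% to 1.53% in somas, median 1.14%, again higher in dendrites in 15 neurons. Across the 16 dendrites this share went with the share of mitochondrially encoded reads, with a Pearson r of 0.80 and a Spearman rho of 0.74, and an r of 0.66 without the 2 dendrites farthest from the median. It went against the number of genes with at least 10 reads, with an r of -0.66 and a rho of -0.57, and an r of -0.54 without the 2 farthest. Each point is 1 library, so all 3 measures share its depth and its quality, and their part in the share of the subunits was not tested.

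Levels were compared between compartments with edgeR, with each neuron as a block. The median of all 10880 genes was at a log2 fold change of -1.49, dendrites over soma, so genes are also described relative to that median gene. Relative to it, the median subunit lay 2.17 higher and the median assembly factor 0.64 lower. On the scale of the fit the median subunit was at 0.68, between -1.91 and 1.87, and 30 of the 37 subunits were above 0, against 21.2% of all genes. With libraries scaled to the ERCC spike-ins, known RNAs added in set amounts, in neurons 3 to 16, the direction of the subunits turned. Their median was -1.77 against -3.96 for all genes. In this scaling as in the main one, 36 of 37 subunits were above the median gene. A change of scaling moves all genes nearly together, so it could hardly alter that number. Scaled counts therefore show the subunits against other RNAs of the same compartment, and the sign of their difference in amount depended on the scaling.

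The test called 3 of the 37 subunits higher in dendrites at an adjusted p of at most 0.05, where 0.827% of all genes were called, and 0 higher in the soma, where 5.71% were called. At an unadjusted p under 0.05 it gave 10 subunits higher in dendrites and 0 in the soma, against 3.55% and 26.7% of all genes. Of the 7 assembly factors, 0 were called higher in dendrites and 1, Ndufaf6, higher in the soma. At an unadjusted p under 0.05 there were 0 and 3 of them. DESeq2 on the same pairs called 9 subunits higher in dendrites and 1 in the soma, against 4.26% and 46.2% of all genes, and 0 and 4 assembly factors. The exact sign-flip test over the 16 pairs called 13 and 1 subunits, against 3.24% and 19.7%, and 0 and 3 assembly factors. Spike-in scaling called 0 subunits higher in dendrites and 13 higher in the soma, against 0.147% and 61.4% of all genes, and rescaling dendrites to the median gene called 23 and 0, against 5.04% and 0.846%. Exon counts gave 7 and 0 of 36 subunits, against 1% and 2.62%, and a fit without the block for neuron 7 and 0, against 1.44% and 0.708%.

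**Figure D2:**
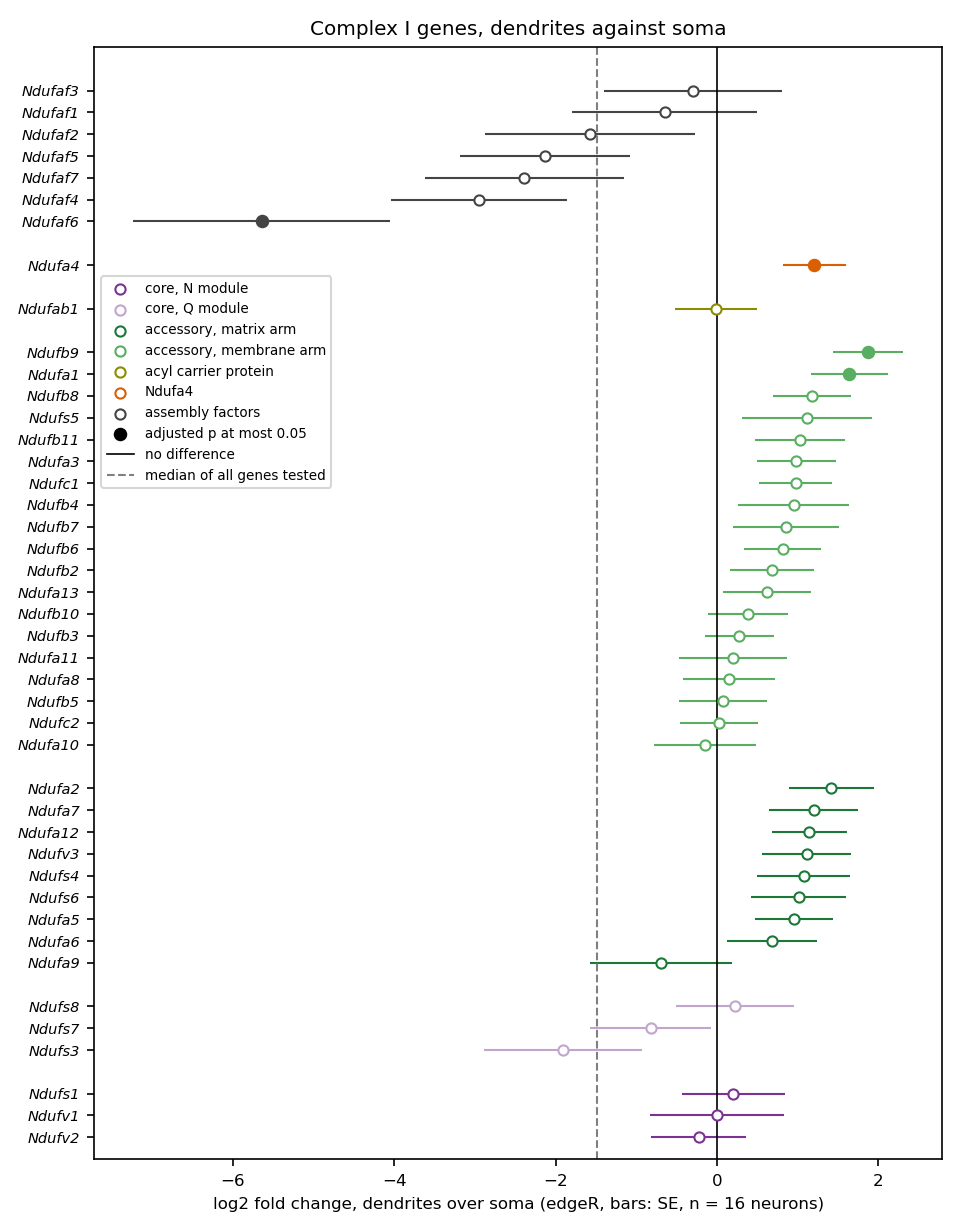
Log2 fold change of 43 of the 44 genes compared, dendrites over soma, with its standard error over 16 neurons, grouped by role. Filled points passed an adjusted p of at most 0.05 in the edgeR fit, the solid line is 0 and the dashed line is the median of all genes at -1.49. Accessory subunits lie mostly right of 0, core subunits around 0 and assembly factors left of 0, and with spike-in scaling the median of the subunits lies at -1.77.

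The core subunits did not pass the edgeR test in either direction. Of the 7 genes, 3 had, at TMM scaling, a log2 fold change above 0, and 6 lay above the median gene. In the N module, Ndufv1, which binds NADH and holds the flavin, ran from 0.662 to 506 CPM in dendrites with a median of 226, and from 33.6 to 495 CPM in somas with a median of 198. Its log2 fold change was 0.00 ± 0.83 (SE) at an adjusted p of 1.00, and it was higher in dendrites in 9 neurons. Ndufv2, an iron-sulfur subunit, had medians of 199 CPM in dendrites and 255 CPM in somas, and its log2 fold change was -0.23 ± 0.59 (SE) at an adjusted p of 0.798. Ndufs1, the large iron-sulfur subunit of this module, had medians of 242 and 177 CPM and a log2 fold change of 0.20 ± 0.64 (SE) at an adjusted p of 0.838. With spike-in scaling Ndufv2 was called lower in dendrites at -2.73 (adjusted p = 0.0198) and Ndufs1 at -2.49 (adjusted p = 0.0406), and Ndufv1 stood at -2.24 (adjusted p = 0.0716).

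The Q module held the subunit with the lowest log2 fold change. Ndufs3, which carries no cofactor, had 0 to 90.7 CPM in dendrites with a median of 31.6, and 19.7 to 154 CPM in somas with a median of 70.1. It was at 0 in the dendrites of neurons 12, 13 and 16 and higher in the soma of 14 neurons, and neurons 3 and 10 went the other way. Its log2 fold change was -1.91 ± 0.98 (SE) at an adjusted p of 0.175. This lay 0.42 below the median gene, and it was the only subunit below it in this fit. DESeq2 called it higher in the soma at -2.13 (adjusted p = 0.00122), and so did the exact sign-flip permutation test, at a mean difference of -2.03 (adjusted p = 0.00846). Ndufs7, which holds the last iron-sulfur cluster before ubiquinone, had medians of 162 and 239 CPM and a log2 fold change of -0.82 ± 0.75 (SE) at an adjusted p of 0.438. Ndufs8, another iron-sulfur subunit, was at 0.22 ± 0.73 (SE, adjusted p = 0.850). With spike-in scaling Ndufs3 was called lower in dendrites at -4.51 (adjusted p = 0.00743) and Ndufs7 at -3.09 (adjusted p = 0.0201), and Ndufs8 stood at -2.23 (adjusted p = 0.0863). Compartments overlapped for each of these genes.

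The accessory subunits were placed higher than the core subunits. Their median log2 fold change was 0.95 over 28 genes, with 26 above 0 and all 28 above the median gene, and this held in both arms, at a median of 1.07 for the 9 genes of the matrix arm and 0.81 for the 19 of the membrane arm. With spike-in scaling all 28 lay below 0, from -2.94 (Ndufa9) to -0.53 (Ndufb9), and the core subunits ran from -4.51 (Ndufs3) to -2.23 (Ndufs8). Of the 37 subunits, 36 stayed above the median gene in that scaling. In the main fit the test called 2 of the 28, both of the membrane arm, and 9 were higher in dendrites at an unadjusted p under 0.05.

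Ndufb9, a membrane arm subunit of the LYR protein family, had the highest log2 fold change of all 44 genes. It ran from 211 to 6857 CPM in dendrites with a median of 1172, and from 108 to 1023 CPM in somas with a median of 327. The dendrites of 10 neurons lay above the highest soma, and only neurons 2 and 14 had more in the soma. Its log2 fold change was 1.87 ± 0.44 (SE) at an adjusted p of 0.0127, 3.37 above the median gene. The call held without each of the 16 neurons in turn, at log2 fold changes of 1.78 to 2.19, and in the 12 neurons of 2 rounds, at 1.94 (adjusted p = 0.0383), but in the 4 neurons of 3 rounds it stood at 1.79 (adjusted p = 0.825). With spike-in scaling it was -0.53 (adjusted p = 0.587).

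Ndufa1, one of the smallest subunits, which spans the membrane, was also called. It ran from 60.6 to 5064 CPM in dendrites with a median of 1229, and from 104 to 1275 CPM in somas with a median of 362. The lowest dendrite was that of neuron 14, and neurons 2 and 14 had more in the soma. The log2 fold change was 1.64 ± 0.48 (SE) at an adjusted p of 0.0336. The adjusted p rose to 0.0614 without neuron 3, 0.0641 without neuron 7, 0.0614 without neuron 8 and 0.0554 without neuron 9. The call was also lost in the neurons of 2 rounds, at 1.76 (adjusted p = 0.0987), and of 3 rounds, at 1.43 (adjusted p = 0.802). It was lost with DESeq2 size factors in edgeR (adjusted p = 0.0501) and with every gene that had a read (adjusted p = 0.118). Of 15 settings other than leaving out 1 neuron, 10 kept it. With spike-in scaling the value was -0.91 (adjusted p = 0.379).

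At the other end of the membrane arm list were Ndufa10, which has the fold of a nucleoside kinase, and Ndufc2. Ndufa10 had medians of 194 CPM in dendrites and 226 CPM in somas, was higher in dendrites in 8 neurons and in the soma in 8, and had a log2 difference of -0.15 ± 0.63 (SE, adjusted p = 0.884). Ndufc2 had medians of 890 and 738 CPM and a log2 fold change of 0.02 ± 0.48 (SE) at an adjusted p of 0.982. Neither gene passed the test at this scaling, and with spike-in scaling both were called lower in dendrites, Ndufa10 at -2.59 (adjusted p = 0.0264) and Ndufc2 at -2.53 (adjusted p = 0.0111).

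In the matrix arm, Ndufa2, which has a thioredoxin-like fold, ran from 179 to 1191 CPM in dendrites with a median of 555, and from 111 to 494 CPM in somas with a median of 205. It was higher in dendrites in 13 neurons, at a log2 fold change of 1.42 ± 0.52 (SE) at an adjusted p of 0.0763. Ndufa7 ran from 76.6 to 1199 CPM in dendrites with a median of 302, and from 45.4 to 350 CPM in somas with a median of 143. It was higher in dendrites in 16 of 16 neurons, at 1.20 ± 0.55 (SE, adjusted p = 0.136). Ndufb8 of the membrane arm, named here after its values were seen, was the other subunit that was higher in dendrites in all 16 neurons, at 1.18 ± 0.48 (SE, adjusted p = 0.104). None of these 3 passed the edgeR test, and DESeq2 called all 3 higher in dendrites, at 1.16 for Ndufa2 (adjusted p = 0.00324), 0.95 for Ndufa7 (adjusted p = 0.0121) and 0.92 for Ndufb8 (adjusted p = 0.0162). Without neuron 15, edgeR called Ndufa2 at 1.79 (adjusted p = 0.0125) and Ndufb8 at 1.36 (adjusted p = 0.0396).

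The lowest fold changes of the matrix arm list were those of Ndufa9, which binds NADPH where the arms meet, and Ndufa6, a LYR protein. Ndufa9 had 0 to 361 CPM in dendrites with a median of 89.8, and 52.3 to 201 CPM in somas with a median of 106. It was at 0 in the dendrites of neurons 15 and 16, was higher in the soma of 10 neurons, and had a log2 fold change of -0.69 ± 0.88 (SE) at an adjusted p of 0.586. With spike-in scaling it was called lower in dendrites at -2.94 (adjusted p = 0.0402). Ndufa6 had medians of 327 and 200 CPM and a log2 fold change of 0.68 ± 0.56 (SE) at an adjusted p of 0.390.

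A pair of genes stands apart from the arms. Ndufab1, the mitochondrial acyl carrier protein, is bound in both arms and also serves fatty acid synthesis. It had 43.7 to 1299 CPM in dendrites with a median of 322, and 122 to 789 CPM in somas with a median of 292, at a log2 fold change of -0.01 ± 0.51 (SE) at an adjusted p of 0.990. With spike-in scaling it was called lower in dendrites at -2.59 (adjusted p = 0.0158). Ndufa4 was named as a complex I subunit and is now placed in complex IV. It ran from 443 to 5598 CPM in dendrites with a median of 1953, and from 440 to 1637 CPM in somas with a median of 698, and the dendrites of 9 neurons lay above the highest soma. Its log2 fold change was 1.21 ± 0.39 (SE) at an adjusted p of 0.0489, higher in dendrites in 14 neurons. This call was lost without neuron 3, 4, 5, 6, 7, 8, 9, 10 or 11, where the adjusted p lay between 0.0552 (neuron 5) and 0.0956 (neuron 7). It was also lost without mitochondrially encoded genes (adjusted p = 0.0619) and with DESeq2 size factors in edgeR (adjusted p = 0.084). The same held with every gene that had a read (adjusted p = 0.203) and in the neurons of 2 rounds (adjusted p = 0.119) or 3 rounds (adjusted p = 0.85). Of 15 settings other than leaving out 1 neuron, 9 kept it. The value with spike-in scaling was -1.21 (adjusted p = 0.175). Without Ndufa4 the median of the other 36 subunits remained at 0.68.

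**Figure D3:**
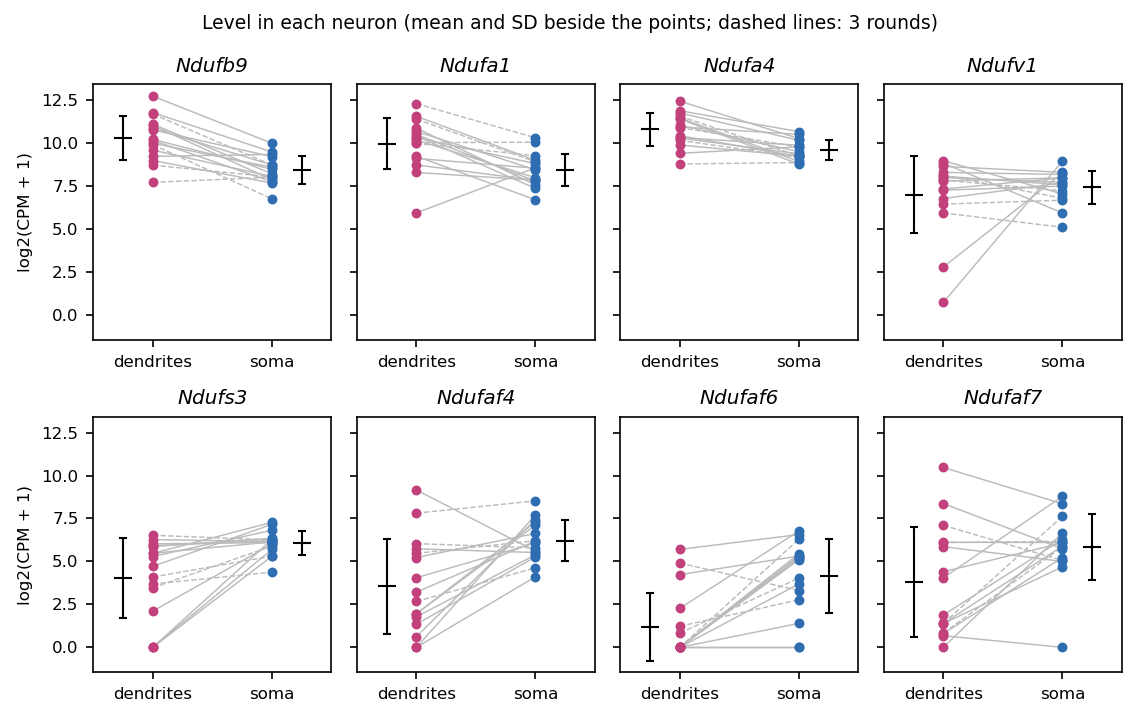
Level of 8 genes in each neuron, as log2(CPM + 1), in dendrites and soma, with a line for each of the 16 neurons (dashed for the 4 neurons of 3 rounds) and the mean and SD beside the points. Ndufb9, Ndufa1 and Ndufa4 slope down toward the soma in 14 neurons each at this scaling (their values turn to -0.53, -0.91 and -1.21 log2 with spike-in scaling), Ndufv1 is higher in dendrites in 9 neurons, and Ndufs3 and the assembly factors have dendrites at 0.

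The assembly factors were low and uneven in dendrites. Ndufaf6, needed for an early step of the membrane arm, was the only one called by edgeR in the main comparison. DESeq2 called it and also Ndufaf4, Ndufaf5 and Ndufaf7, and the exact sign-flip test called it, Ndufaf4 and Ndufaf5, all higher in the soma. Ndufaf6 had 0 reads in the dendrites of 10 neurons, and its dendrite levels ran from 0 to 51.0 CPM with a median of 0, against 0 to 109 CPM and a median of 34.4 in somas. It was higher in the soma of 13 of the 14 neurons with reads, and neuron 2 was the exception. The fitted log2 fold change was -5.64 ± 1.59 (SE) at an adjusted p of 0.0293, a value that rests on many zeros. The adjusted p was between 0.0511 and 0.0680 without neuron 3, 7, 10, 12, 13, 15 or 16, 0.0576 without both neurons 15 and 16, and 0.0678 on exon counts. The call was also lost without the block for neuron, at -2.40 (adjusted p = 0.299), and with equal reads within pairs, at -4.76 (adjusted p = 0.0598). Rescaling to the median gene (adjusted p = 0.0999), every gene with a read (0.0924) and the neurons of 3 rounds (0.897) lost it too. Of 15 settings other than leaving out 1 neuron, 8 kept it.

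Ndufaf4 and Ndufaf3 work together on the Q module. Ndufaf4 had 0 to 571 CPM in dendrites with a median of 6.81, and 16.2 to 368 CPM in somas with a median of 68.9. It was higher in the soma of 13 neurons, at a log2 fold change of -2.95 ± 1.09 (SE) at an adjusted p of 0.0763. DESeq2 called it at -3.22 (adjusted p = 1.34e-05), and the exact sign-flip permutation test at -2.65 (adjusted p = 0.0244). Ndufaf3 had a median of 12.1 CPM in dendrites and 22.7 CPM in somas, with 8 neurons in each direction, at -0.30 ± 1.10 (SE, adjusted p = 0.864). The difference between the genes was not tested.

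Ndufaf5 and Ndufaf7 are enzymes that modify arginines of Q module subunits. Ndufaf5, which acts on Ndufs7, had 0 to 511 CPM in dendrites with a median of 48.1, and 38.7 to 245 CPM in somas with a median of 111, at -2.13 ± 1.05 (SE, adjusted p = 0.162). Ndufaf7 had a median of 9.07 CPM in dendrites and 62.5 CPM in somas, at -2.39 ± 1.23 (SE, adjusted p = 0.178). Its highest value of all libraries, 1418 CPM, was in the dendrites of neuron 15, and without that neuron its log2 fold change was -2.53 (adjusted p = 0.224). Both were higher in the soma in most neurons, 12 for Ndufaf5 and 10 for Ndufaf7. DESeq2 called Ndufaf5 at -2.37 (adjusted p = 0.00196) and Ndufaf7 at -2.62 (adjusted p = 0.00111). The exact sign-flip permutation test called Ndufaf5 at -2.36 (adjusted p = 0.0283) and not Ndufaf7 (adjusted p = 0.0785).

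The other assembly factors were Ndufaf2, a paralog of the subunit Ndufa12, and Ndufaf1, which works on the membrane arm. Ndufaf2 had medians of 20.4 CPM in dendrites and 40.0 CPM in somas, at -1.58 ± 1.30 (SE, adjusted p = 0.391), although its mean was higher in dendrites, 91.0 CPM against 47.6, and its highest dendrite, that of neuron 3, was at 915 CPM. Ndufaf1 had medians of 68.3 and 44.8 CPM, at -0.65 ± 1.15 (SE, adjusted p = 0.703). Ndufaf1 was higher in dendrites in 8 neurons and in the soma in 7, and Ndufaf2 in 5 and 10. Mean levels were higher in dendrites for Ndufaf1, Ndufaf2, Ndufaf3 and Ndufaf7, opposite to the sign of their fitted fold changes.

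Pairs of subunits had higher correlations across neurons than pairs of assembly factors, by a margin that depended on the measure. For each pair of genes, the dendrite minus soma difference in log2(CPM + 1) was correlated over the 16 neurons. The median Spearman rho was 0.34 over the 666 pairs of subunits (quartiles 0.16 and 0.52), 0.01 over the 21 pairs of assembly factors, 0.05 over the 259 mixed pairs, and 0.04 over all pairs of the 1863 genes read in at least 15 dendrites. For the levels within dendrites the median rho was 0.38 over subunit pairs, 0.25 over assembly factor pairs and 0.04 over all pairs of those 1863 genes. Within somas it was 0.30, 0.14 and 0.02. The pairs share libraries and genes, so these are descriptions, and the part of shared depth and composition was not tested.

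Within a neuron, the number of subunits higher in dendrites ran from 10 of 37 in neuron 14 to 36 in neuron 3, with a median of 27. Among all genes tested, 16.1% to 51.9% were higher in dendrites. Neuron 13 was also low, with 18 subunits, and neurons 7 and 11 were high, with 34 and 35. For the assembly factors the number ran from 0 of 7 in neuron 13 to 5 in neuron 2. Neuron 14 had 4.30% of mitochondrially encoded reads in its dendrites and 8265 genes with at least 10 reads there, while neuron 3 had 13.4% and 4781. Whether these differences play a part in the order of the neurons was not tested.

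Relative to the mean, the spread between neurons was larger in dendrites for each of the 44 complex I genes compared. The coefficient of variation of the CPM had a median of 74.8% in dendrites and 47.7% in somas for the subunits, and of 222% and 85.0% for the assembly factors, and it was higher in dendrites for 37 of 37 and 7 of 7 genes. The SD itself was smaller in dendrites only for Ndufs3 (29.59 against 35.45 CPM) and Ndufaf6 (14.38 against 33.45 CPM). Dendrites and somas overlapped in range for all 44. The same counts were not taken over all genes, so whether they are particular to complex I was not tested. The dendritic read fraction, the share of a gene's size-factor normalized reads of a neuron that lay in its dendrites, was taken in neurons with at least 10 such reads. It had a median over genes of 0.568 for the subunits, from 0.235 for Ndufs3 to 0.735 for Ndufb9, and of 0.288 for the assembly factors, from 0.131 for Ndufaf6 to 0.450 for Ndufaf3. Over all genes with at least 5 such neurons the median was 0.335, and over genes read in at least 15 dendrites 0.424. Its variance between neurons had a median of 0.0260 for the subunits, 0.105 for the assembly factors, 0.105 for all genes and 0.0527 for genes read in at least 15 dendrites. Ndufb11, with 0.0109, had the lowest variance of the subunits and Ndufa9, with 0.0559, the highest.

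The number of amplification rounds is the batch given by the labels, and it is the same in both compartments of a neuron. An interaction term for rounds and compartment called 0 of the 44 genes, and 0 of all 10880 genes, with the smallest unadjusted p at 0.136 (Ndufaf4) and 2.65% of all genes at an unadjusted p under 0.05. In the 12 neurons of 2 rounds the median subunit lay 2.28 above the median gene and in the 4 neurons of 3 rounds 1.73 above it. The assembly factors lay 0.73 below it with 2 rounds and 0.05 below it with 3 rounds. Within the 2 rounds, 1 subunit was called higher in dendrites and 1 assembly factor higher in the soma, and within the 3 rounds 0 and 0. The share of all genes called in these fits was not taken, so the counts cannot be set against it.

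Short coding sequences and higher fold changes went together in this family. The coding length was taken from the principal transcript of GENCODE vM21, and it had a median of 402 nt over the 28 accessory subunits, 789 nt over the 7 core subunits and 990 nt over the 7 assembly factors. Across the 37 subunits the log2 fold change and the log2 coding length had a Spearman rho of -0.56 and a Pearson r of -0.52, and across all 44 genes a rho of -0.60 and an r of -0.49. The annotated 3′UTR length showed no such relation, with a rho of -0.03 over the subunits. The mean level over all libraries had a rho of 0.42 with the fold change over the subunits and of 0.61 over all 44 genes (r of 0.69), of the size seen for length. The mean level in somas had a rho of 0.07 over the subunits and 0.40 over all 44 genes. These correlations are across genes, which are not independent replicates, and role, length and level go together in this list, so they cannot be told apart. Ndufv3 combined the longest coding sequence of the accessory subunits, 1404 nt, with a log2 fold change of 1.11.

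**Figure D4:**
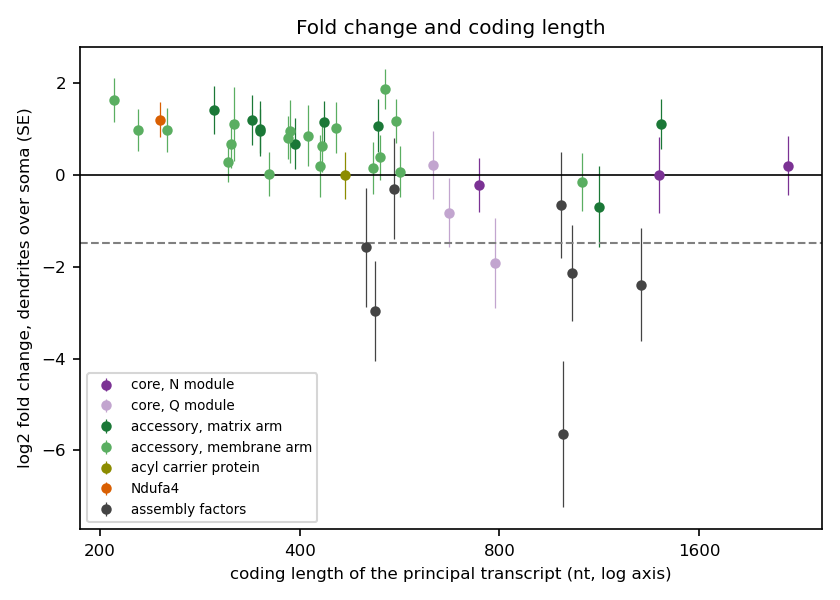
Log2 fold change, dendrites over soma, with its standard error, against the coding length in nt (log axis) for 43 of the 44 genes, colored by role. The genes under 400 nt are accessory subunits or Ndufa4 and all lie above 0 at this scaling (the median of the subunits is -1.77 with spike-in scaling), while the dashed line marks the median of all genes at -1.49.

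Other genes of the pathway were read from lists of names. The 7 core subunits coded in the mitochondrial genome are not analysed here. Of 14 further complex I assembly factors, 13 had a row and 12 were compared, and 0 were called in either direction. Their median log2 fold change was -1.85, between -4.25 and -0.69, and 4 of the 12 lay above the median gene. The lowest were Sfxn4, at -4.25 ± 1.89 (SE, adjusted p = 0.128), and Timmdc1, a membrane arm factor, at -3.21 ± 1.27 (SE, adjusted p = 0.0933). Neither list of assembly factors held a gene above a log2 fold change of 0 in this fit.

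Of 40 nuclear-encoded genes of complexes II to V and of cytochrome c, 39 were compared, and 11 were called higher in dendrites and 0 in the soma. Their median log2 fold change was 0.76, all 39 lay above the median gene, and 29 lay above 0 in this scaling. The called genes were Cox6a1, Cox7c, Cox8a, Cox4i1, Cox6b1, Cox7a2 and Cox6c of complex IV, Uqcr11 and Uqcrq of complex III, and Atp5j2 and Atp5k of ATP synthase. Cox6a1 was the highest, at 2.14 ± 0.39 (SE, adjusted p = 0.00182). The complex I subunits stood at 3 of 37 called and a median of 0.68. Without Ndufa4, which is now placed in complex IV, 2 of 36 were called. The difference between the lists was not tested. Over the 1863 genes read in at least 15 dendrites, the median was -0.33, and 50 were called higher in dendrites.

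Alternative 3′ ends were compared with a second table, in which reads are counted on the last 500 nt of each end. For the ends with the most reads of each gene, the share on the higher-numbered end was compared between dendrites and soma of a neuron with an exact two-sided signed-rank permutation test. A gene needed 10 or more reads on these ends in both compartments of at least 5 neurons. This could be done for 22 of the 45 genes. At an unadjusted p under 0.1, the level the study used, 2 of the 22 differed, or near the 8.44% of all 3508 genes tested, and 0 of all genes passed an adjusted p of 0.05. Ndufa9 had a share of 0.811 ± 0.267 on its end 2 in dendrites and 0.644 ± 0.255 in somas (SD, n = 13), a difference of 0.166 ± 0.260, higher in dendrites in 10 neurons and lower in 2 (exact signed-rank test, p = 0.0425, adjusted p = 0.949). Ndufa10 had 0.750 ± 0.158 in dendrites and 0.678 ± 0.197 in somas (SD, n = 15), a difference of 0.0722 ± 0.151, higher in dendrites in 10 neurons and lower in 5 (exact signed-rank test, p = 0.0946, adjusted p = 1.00). In the neurons of 2 rounds alone, neither differed at this level. The number of genes at this level fell from 2 to 1, Ndufa9, without neuron 1, 2, 3, 4, 6, 7, 9, 11, 13 or 15.

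Most of the other genes tested used 1 of their ends nearly alone in both compartments. Ndufb2 had 0.987 of the reads on its end 2 in dendrites and 0.982 in somas, and Ndufc1 0.991 and 0.992. Ndufa12 had 0.0199 and 0.0234. Ndufc2, which used both ends, had 0.197 ± 0.117 in dendrites and 0.213 ± 0.0885 in somas (SD, n = 16, exact signed-rank test, p = 0.274).

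Counts of genes with few reads, or with near copies in the genome, are less certain. Ndufs5 had only 2 to 44 reads in dendrites and 2 to 52 in somas, and at most 2 exon reads in any library. Its log2 fold change of 1.11 ± 0.81 (SE) at an adjusted p of 0.330 thus rests on few reads and is uncertain. The cause of these low counts was not tested. Ndufa11, Ndufa12 and Ndufb4 have copies with rows of their own in the table, with medians of 1.5, 13.5 and 11.5 reads in dendrites against 264, 1143.5 and 299.5 for the genes themselves.

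**Figure D5:**
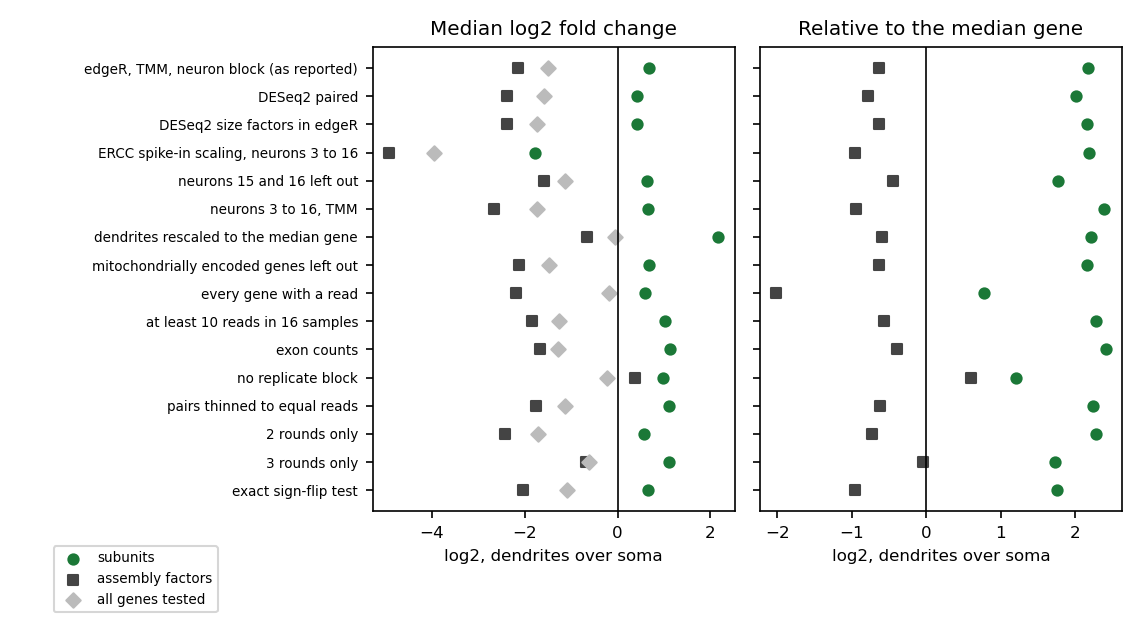
Median log2 fold change, dendrites over soma, of the subunits, the assembly factors and all genes tested (left), and of both groups of complex I genes relative to the median gene (right), under each setting of the comparison, with 1 point per setting. The subunits stay above the median gene throughout, from 0.77 to 2.41, although their own median is below 0, at -1.77, with spike-in scaling. Settings that change only the scaling move all genes nearly together, so they could hardly alter the position relative to the median gene. The assembly factors lie below the median gene except without the block for neuron, at 0.59.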

How the data were processed

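RNA was measured in 32 libraries, the soma and dendrites of 16 neurons. The authors trimmed the reads, aligned them to mm10 with STAR (version 2.4.0 in the submitters' processing notes) and counted uniquely mapped, strand-matched reads with VERSE. The deposited tables hold raw counts, not normalized, on the union of the 3′UTRs of each gene, on 74532 single 3′ ends, and on exons with 92 ERCC spike-ins. The end table numbers the ends without positions, so the share on the higher-numbered end was compared. Reads carry no molecular identifiers, so precision was taken from the spread between neurons.

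Counts were fitted for all genes with edgeR 4.0.16 (TMM, robust quasi-likelihood test, Benjamini-Hochberg adjustment) in R 4.3.3, with neuron as a block, and SE is the size of the log2 fold change divided by the square root of F. DESeq2 1.42.0 gave size factors and an alternative test. Python 3.11, NumPy 2.4.6, pandas 2.3.3, SciPy 1.17.1 and matplotlib 3.10.9 were used for the rest. The sign-flip test used log2(CPM + 1). Pairs come from the same cell, and the correlation of deviations from the compartment mean was 0.0887 ± 0.0772 (SD, n = 16) within neurons and -0.00559 ± 0.0526 (SD, n = 240) between neurons. Neurons are separate cells, from several cultures by the design text. No libraries held identical counts. The edgeR test was tested on simulated data: of 165 genes changed by 4 on the log2 scale it called 69, with 1 of 9663 unchanged genes.

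Named genes were the core subunits, the assembly factors, every gene called, the highest and lowest 2 accessory subunits of each arm, genes with a signed-rank p under 0.1, Ndufab1, Ndufa4 and the called genes of the other lists. A core subunit and a cell type marker are not reported here. Further genes named were chosen after their values were seen. The members and lists were chosen with earlier results of these data known. Older symbols were matched through the RefSeq gene table, which gave Tmem261 for Dmac1 and Atp5sl for Dmac2. Alternatives covered the test, scaling, filters, exon counts, the block, equal depth, rounds of amplification and leaving out neurons.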

Additional observations from a re-analysis of the deposited data

How the results depend on the processing

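Against 3 subunits called higher in dendrites and 0 in the soma, and 0 and 1 assembly factors, other settings gave these numbers. DESeq2 called 9 and 1 subunits and 4 assembly factors in the soma. DESeq2 size factors in edgeR gave 1 subunit and 2 assembly factors. Spike-in scaling gave 0 and 13 subunits and 5 assembly factors, and it turned Ndufb9 to -0.53, Ndufa1 to -0.91, Ndufa4 to -1.21, Ndufc2 to -2.53 and Ndufs1 to -2.49. Rescaling to the median gene gave 23 subunits and 0 assembly factors. With every gene that had a read it was 0 and 0, and the subunits lay 0.77 above the median gene. At least 10 reads in 16 samples gave 6 subunits, exon counts 7 and 0 assembly factors, and equal reads within pairs 6 and 0. The 2-round neurons gave 1 subunit and the 3-round neurons 0 and 0. The sign-flip test gave 13 and 1 subunits and 3 assembly factors. Leaving out neurons 15 and 16, chosen after seeing the data like the TMM fit of neurons 3 to 16, gave 4 and 0. Shares of all genes called are given above for DESeq2, the sign-flip test, spike-in scaling, rescaling, exon counts and the fit without the block. For the other settings, and for the fits without 1 neuron, these shares were not taken. Their counts thus cannot be told apart from a general change in calls.

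Leaving out 1 neuron gave 1 to 7 subunits higher in dendrites (1 without neuron 3, 7, 8 or 9, and 7 without neuron 15), 0 to 1 assembly factors higher in the soma, and 1 to 2 genes with a different share of 3′ ends. That last number was 1 at 5 reads per neuron and 0 in 2-round neurons. With 10 reads or thinned dendrites, 0 assembly factors were present in 15 dendrites.

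Without the neuron block (no pairing), 7 subunits and 0 assembly factors were called, and the median assembly factor turned to 0.59 above the median gene. The cause was not tested for any of these.

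Of 774 combinations of 25 named genes and an alternative, 697 kept their call, 38 lost it, 34 gained one and 5 reversed; in 103 of the 697 a value called in neither fit changed sign. Read numbers limit the precision of the assembly factors, whose median dendrite reads ran from 0 (Ndufaf6) to 61.5 (Ndufaf5), and of the subunits Ndufs5 (8.0) and Ndufs3 (43.5).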

Other observations

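Ndufaf8, a factor that works with Ndufaf5, has a row under an older symbol, 1810043H04Rik, and so was not among the genes chosen by symbol. It was read in 15 dendrites (median 14.5 reads) and in 15 somas (median 83 reads). Its log2 fold change was 0.07 ± 1.01 (SE, edgeR, adjusted p = 0.966), 1.57 above the median gene, and it was higher in dendrites in 10 of 16 neurons.

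The mitochondrial ribosomal RNAs, RNAs of the organelle itself, were, with TMM scaling, higher in dendrites in 15 of 16 neurons, at log2 fold changes of 3.62 ± 0.33 for mt-Rnr1 (SE, edgeR, adjusted p = 2.89e-11) and 3.41 ± 0.29 for mt-Rnr2 (SE, edgeR, adjusted p = 5.75e-12). Ndufb9, the highest complex I gene, was at 1.87 in the same fit.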
